A study of Danio rerio with 20 samples.

Results

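Gene expression in the ventricular apex of zebrafish at 3 days post cryoinjury (3 dpci) was compared with that in non-injured apexes. The comparison uses 8 of the 20 RNA sequencing libraries of the study, namely the 4 labelled 3 dpci and the 4 labelled as having no cryoinjury, chosen by their labels alone. The study injured the apex of the adult heart by freezing and followed it at 1.5, 3, 7 and 14 dpci beside the non-injured control. All fish of both groups carry the genotype label WT, and both groups share the same dissection, since the apex was cut off, and 3 to 4 apexes were pooled and frozen in each tube. The methods give male and female fish between 5 and 12 months of age for cryoinjury and heart dissection, without the age or sex of single pools. The labels do not say whether tubes of a group came from separate clutches or days, so p-values measure the spread between pooled samples. For single loci this is, in the main fits, the spread within all 5 groups of the study.

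Cryoinjury kills the frozen tissue of the ventricle, and in zebrafish the wound passes through an inflammatory phase before regeneration. In the first days, a fibrin-rich clot forms, immune cells enter the wound and clear debris, and cells of the epicardium, endocardium and connective tissue are activated. Surviving cardiomyocytes at the wound border later divide and replace the lost muscle. The comparison at 3 dpci asks which transcripts are more or less abundant in the whole apex, wound and remaining muscle included, during this early phase. In bulk tissue, fewer cells of a type and less RNA per cell cannot be told apart.

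The deposited table lists 66128 loci, each with a tracking number (XLOC) and a value for each library that is the number of reads counted on the locus divided by a size factor of the library. A value is not divided by locus length, so levels are compared between libraries and not between loci, other than as shares of the reads. Where the abundance of a locus is given below, it refers to its value as such a share, not corrected for length. The column of gene names is sorted in another order than the values, and for this reason loci are given by tracking number, no gene is named, and the cardiac origin of the tissue could not be checked against marker genes. Of the reads recovered from the values, between 24371179 and 26742997 fell on loci in the non-injured libraries and between 25180074 and 28477628 in the 3 dpci libraries. A single read was worth 0.988 to 1.26 value units in the non-injured libraries and 0.813 to 0.925 at 3 dpci.

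The non-injured libraries fell into 2 pairs by principal components, though not by every measure. A principal component analysis of log2(value + 1) over the 61441 loci read in any of the 8 libraries placed the 2 groups apart on component 1, which held 39.6% of the variance, with non-injured scores from 100.6 to 171.3 and 3 dpci scores from -153.6 to -116.2. Component 2, with 18.4% of the variance, set non-injured replicates 1 and 2 (scores 127.5 and 99.1) apart from replicates 3 and 4 (-124.7 and -157.7), and the 3 dpci libraries lay between them, from -2.71 to 34.4. The labels give no batch that matches this division. Each change is therefore reported as held only if it passed the test in the same direction in 3 fits, against all 4 non-injured libraries, against replicates 1 and 2 alone and against replicates 3 and 4 alone. The 3 fits share the 3 dpci libraries and are not independent of each other.

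**Figure D1:**
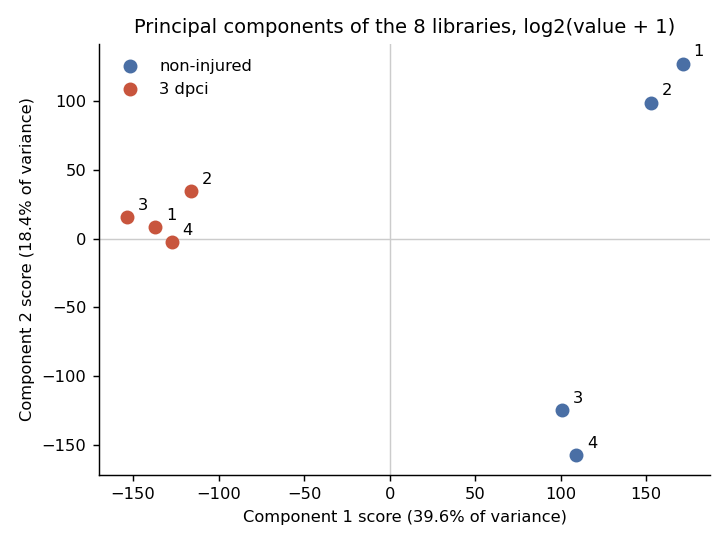
Scores of the 4 non-injured (blue) and 4 3 dpci (red) libraries on principal components 1 and 2 of log2(value + 1), with the replicate number beside each point and the percentage of variance on each axis. The groups separate on component 1, and non-injured replicates 1 and 2 lie far from replicates 3 and 4 on component 2.

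Over the 16070 loci whose mean in the 8 libraries was at least 100, the median absolute difference in log2(value + 1) between 2 libraries was 0.19 to 0.33 within the non-injured group and 0.17 to 0.38 within the 3 dpci group. By this measure non-injured replicates 3 and 4 were the most alike of the controls (0.19) but replicates 1 and 2 the least alike (0.33), and replicate 1 was nearer to replicates 3 (0.25) and 4 (0.28). Between a non-injured and a 3 dpci library it was 0.45 to 0.59, so every pair across the groups differed by more than any pair within a group. The median standard deviation of a locus was 0.25 in the non-injured group and 0.23 at 3 dpci. At 3 dpci, 54164 ± 949 loci had a value above 0 and in the non-injured group 51785 ± 1103 (SD, n = 4), with an exact two-sided permutation p of 0.0571 (adjusted p = 0.0571 over 2 library measures), where the smallest p possible is 0.0286. The lowest 3 dpci library, with 52948 loci, was below the highest non-injured library, with 53364.

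A large part of the transcriptome differed between the groups. Of 62594 loci tested with limma on log2(value + 1), 8067 (12.9%) were higher and 6488 (10.4%) lower at 3 dpci at a Benjamini-Hochberg adjusted p below 0.05, together 23.3%. Against non-injured replicates 1 and 2 alone, 6505 loci (10.4% of those tested) were higher and 5802 (9.28%) lower. Against replicates 3 and 4 alone, 6281 (10%) were higher and 5252 (8.4%) lower. The changes that held in all 3 fits numbered 3833 rises, 6.12% of the loci tested, and 2950 falls, 4.71%, in all 6783 loci or 10.8%.

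These held changes are 47.5% of the rises and 45.5% of the falls called against all 4 non-injured libraries. Of the rises that did not hold, 1564 missed the threshold only against replicates 1 and 2, 1554 only against replicates 3 and 4, and 1116 against both. Among the falls the same counts were 1420, 1304 and 814. The estimate turned its sign against 1 of the pairs for 1 of the rises and 2 of the falls called. Since the estimate against all 4 controls is the mean of the estimates against the 2 pairs, a called locus could hardly turn. These counts therefore do not show whether the pairs agree. The fits against a pair hold 2 control libraries in place of 4, and whether a fold change differs between the pairs was not tested.

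The number of held changes was lower when a control library was left out, which leaves its pair with 1 library that is assumed to vary like the other groups. Without non-injured replicate 1, 2328 rises and 1504 falls held, and without non-injured replicate 3, 2506 rises held. A held locus cannot be held in the opposite direction in these fits, since the fit against the other pair stays the same. The 4 values at 3 dpci lay all above the 4 non-injured values at 8059 loci (12.9% of those tested) and all below them at 6137 (9.8%). Loci that both held and were separated in this way made up 6.01% of the loci tested for the rises (3763 of the 3833 held) and 4.63% for the falls (2898 of the 2950 held). Just inside the threshold among loci with a mean of at least 100 was XLOC_010196, whose least favourable adjusted p was 0.0499 and whose fold change was small, at 0.44 on the log2 scale. Just outside was XLOC_051655, with a log2 fold change of -1.85 and an adjusted p of 0.05001 against replicates 1 and 2.

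**Figure D2:**
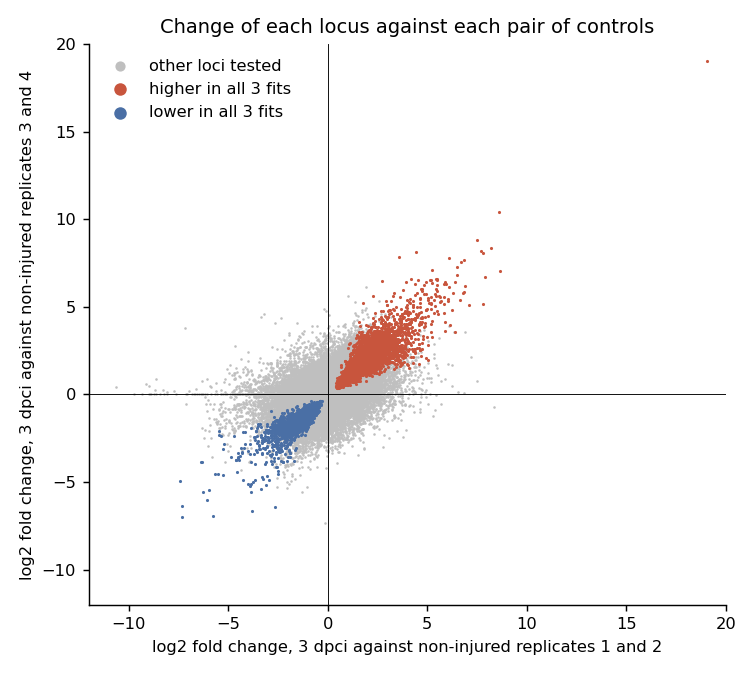
Log2 fold change on the log2(value + 1) scale of each tested locus at 3 dpci against non-injured replicates 1 and 2 (horizontal axis) and against replicates 3 and 4 (vertical axis), with the 3833 held rises in red, the 2950 held falls in blue and other loci in grey. Both axes use the same 4 3 dpci libraries, and the isolated point at the top right is XLOC_028312, which is listed at 0 in all 4 non-injured libraries.

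Over all held loci the median rise was larger than the median fall, though not at every level of abundance. The held rises had a median log2 fold change of 2.0 and the held falls of -1.27, beside 0.02 over all loci tested and -0.04 over those with a mean of at least 100. Of the held rises, 244 were at 0 in all 4 non-injured libraries, and with these set to the smallest fold that 3 reads per library allow, the median was 1.89. For the 35 held falls at 0 in all 4 libraries at 3 dpci the same treatment left the median at -1.26. With such loci at this bound, 1757 held rises but 373 held falls had changed by at least 2 on the log2 scale, and 539 and 84 by at least 3. Against replicates 1 and 2 the median of the held rises was 1.92 and against replicates 3 and 4 it was 2.01, with -1.21 and -1.31 for the held falls.

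The balance of rises and falls differed with abundance. Among the 4804 loci whose mean over the 8 libraries was 1000 or more, which carried 81.1% of all values, 1193 (24.8%) were held falls and 535 (11.1%) held rises. Between 100 and 1000 the counts were nearly equal, with 1103 falls (9.79% of 11266 loci) and 1249 rises (11.1%). Between 10 and 100, where 16393 loci were tested, 538 (3.28%) were held falls and 1257 (7.67%) held rises, and between 1 and 10 the numbers were 116 and 781 of 22882. Below a mean of 1 only 11 of 7249 loci held, all of them rises, and a change of a locus that low was hardly detectable at this depth. The median held rise was 2.43 between 1 and 10, 2.14 between 10 and 100, 1.57 between 100 and 1000 and 1.13 from 1000 on. In the same order the median held fall was -2.43, -1.71, -1.14 and -1.17. The medians over all held loci thus also depend on how many rises and falls each class holds.

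As a share of each library's values, the held falls made up 45.7% ± 3.57 in the non-injured group (40.7% to 49.1%) and 22.9% ± 1.02 at 3 dpci (21.7% to 23.99%; SD, n = 4). The held rises went from 4.67% ± 0.455 (4.32% to 5.34%) to 18.9% ± 1.72 (17.1% to 21.0%). These shares describe loci chosen by the test on the same libraries, and no test was made on them. Of the held rises, 34 accounted for 50% of the gain, and of the held falls 72 accounted for 50% of the loss. Without the most abundant riser, XLOC_028312, the share of the held rises at 3 dpci was 17.0% ± 1.71 and 81 loci carried 50% of the gain, more than the 72 of the falls. The sum of all values was 28779300 ± 2582710 in the non-injured group and 23394900 ± 1924990 at 3 dpci (exact two-sided permutation p = 0.0571, adjusted p = 0.0571, n = 4).

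XLOC_028312 stood apart from all other loci. It was listed at 0 in the 4 non-injured libraries and at 436980, 585424, 580924 and 556406 in 3 dpci replicates 1 to 4, where it had the highest group mean of all loci and 2.10% to 2.41% of all values. At 1.5 dpci it was listed at 485107, 480004 and 518751 in replicates 1, 2 and 4 but at 0 in replicate 3, and it was at 0 in all libraries of 7 and 14 dpci. No library held an intermediate value. Over the 20 libraries, 36 loci had a 0 in some library and at least 1000 in another, and only XLOC_028312 and XLOC_052752 among them were at 1000 or more wherever they were above 0. An exact 0 beside values of this size can be a failed estimate, and whether that is so here was not tested. The locus passed the test in all 3 fits (limma, adjusted p = 1.96e-04, 0.0038 and 0.00377), and no fold change is given.

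Among the other loci with a mean of at least 100 and no overlap between the groups, the largest held rise was at XLOC_040406. It had 11.4, 9.88, 2.22 and 2.39 value units in non-injured replicates 1 to 4 and 2707, 6133, 6736 and 3900.1 at 3 dpci. Every 3 dpci library was thus far above the highest non-injured library, and within the non-injured group replicates 1 and 2 were above 3 and 4. The ratio of the means was 753, and the log2 fold change was 9.53 ± 0.50 (SE, n = 4 per group, limma, adjusted p = 5.97e-10), 8.62 against replicates 1 and 2 and 10.43 against replicates 3 and 4. At 1.5 dpci its mean was 665, at 7 dpci 305 and at 14 dpci 99.0, all between the non-injured and the 3 dpci level.

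By the fitted log2 fold change, the next largest rises were those of XLOC_028133 and XLOC_031825. XLOC_028133 had values of 105, 12.8, 27.7 and 39.5 in the non-injured libraries and 6127, 11843, 17557 and 12084 at 3 dpci. XLOC_031825 had 352, 167, 206 and 45.5 against 25175, 50576, 63623 and 44329. In both loci the groups were far apart, replicate 1 was the lowest of the 3 dpci libraries and replicate 3 the highest. The means differed by 258-fold for XLOC_028133 (log2 fold change 8.27 ± 0.48, limma, adjusted p = 3.52e-09) and by 238-fold for XLOC_031825 (8.14 ± 0.50, adjusted p = 1.15e-08). Their courses over time differed in form, as XLOC_031825 was already at 16514 ± 2599 at 1.5 dpci and XLOC_028133 at 1009.9 ± 164, beside 13249 and 3868 at 7 dpci (SD, n = 4). Whether these courses differ was not tested.

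XLOC_016808 and XLOC_041342 had low values before injury. XLOC_016808 had 18.9, 7.90, 9.97 and 9.58 in the non-injured libraries and 2059.9, 3953, 6768 and 1328 at 3 dpci. XLOC_041342 had 2.53, 2.96, 1.11 and 2.39, a total of 8 reads in the group, against 663, 1470.0, 694 and 514. The log2 fold change was 7.93 ± 1.28 for the former (limma, adjusted p = 2.65e-04) and 7.93 ± 1.18 for the latter (adjusted p = 9.65e-05). These errors come from a fit that pools the spread of all 5 groups, and XLOC_016808 spanned 35.1 to 1978 at 7 dpci and 51.3 to 4564 at 14 dpci.

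**Figure D3:**
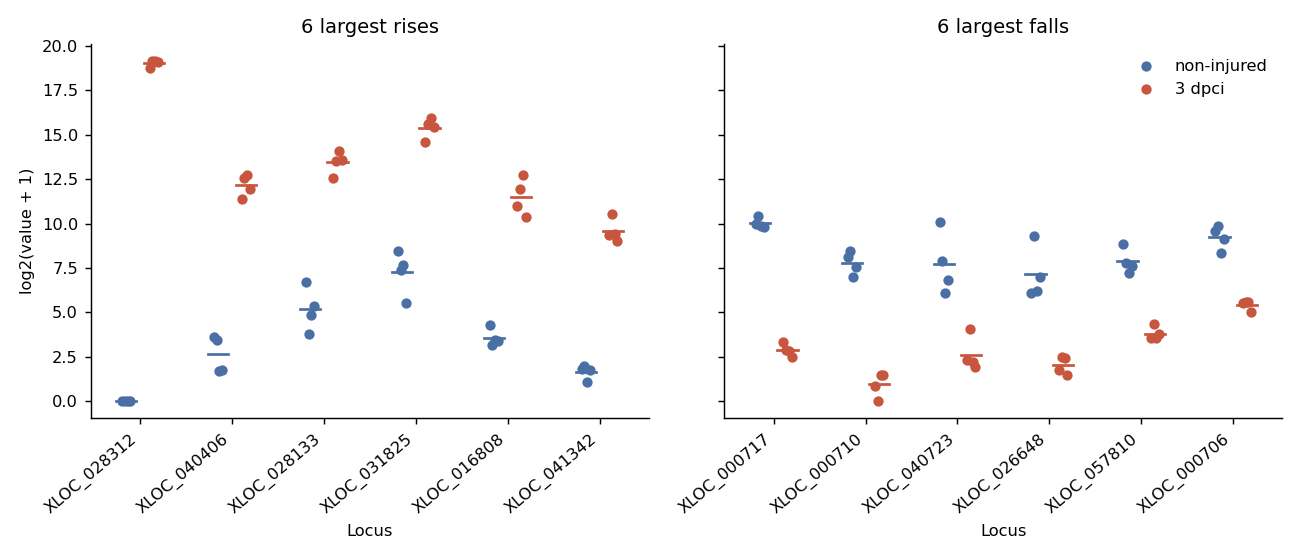
Values as log2(value + 1) of the 6 largest held rises (left) and the 6 largest held falls (right) among loci with a mean of at least 100, for each non-injured (blue) and 3 dpci (red) library, with a bar at each group mean. Only loci without overlap between the groups could be chosen. The non-injured points of XLOC_040723 and XLOC_026648 include a single high library each.

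The largest gains in value units came from loci that were already read in non-injured hearts, with the exception of XLOC_028312. XLOC_064281 had 3032, 2401, 1070.3 and 856 in the non-injured libraries and 47543, 107408, 129942 and 72876 at 3 dpci, a ratio of the means of 48.6. The log2 fold change was 5.70 ± 0.40 (limma, adjusted p = 3.63e-08), and its 1.5, 7 and 14 dpci means of 28977, 21460 and 16447 all lay between the groups compared. XLOC_043647 had 8599, 4139, 5588 and 7296 against 68577, 103875, 107230 and 85179, and XLOC_008118 had 11010.3, 4800.4, 7280.3 and 9568 against 63151, 111753, 110070 and 82296. The last 2 loci had similar values in each library, with replicate 2 the lowest non-injured and replicate 1 the lowest 3 dpci library in both. Their log2 fold changes were 3.86 ± 0.21 (adjusted p = 2.12e-10) and 3.52 ± 0.23 (adjusted p = 3.71e-09). At 1.5 dpci XLOC_043647 was at 22348 ± 1092 and XLOC_008118 at 22595 ± 1501. Reads that match several loci could be split between them by the counting, and this was not tested.

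By the fitted log2 fold change, the largest held fall was that of XLOC_000717. It had 1003, 1397, 944 and 899 in the non-injured libraries and 8.94, 6.48, 6.19 and 4.59 at 3 dpci, so that the mean was lower by 162-fold and the groups were widely separated. The log2 fold change was -7.14 ± 0.30 (SE, n = 4 per group, limma, adjusted p = 8.06e-12). XLOC_000710, with 275, 348, 129 and 189 against 0.813, 0, 1.77 and 1.83, rested on 5 reads in all at 3 dpci and had a log2 fold change of -6.83 ± 0.40 (adjusted p = 5.75e-10). Its mean was lower by 213-fold, more than that of XLOC_000717. With a pseudocount of 0.1 the order of these loci turned, at -8.18 for XLOC_000710 and -7.34 for XLOC_000717. Both loci, and XLOC_000706 with 780.5, 933, 322 and 571 against 44.7, 47.2, 46.8 and 32.1, belong to the run of neighbouring locus numbers described further on.

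The other 3 of the 6 largest falls are numbered elsewhere. XLOC_040723 had 1101, 234, 66.5 and 114 in the non-injured libraries and 4.06, 15.7, 3.53 and 2.75 at 3 dpci. XLOC_026648 had 66.9, 634, 72.0 and 126 against 2.44, 4.63, 4.42 and 1.83. In each of these the non-injured mean rested mostly on a single library, replicate 1 for the former and replicate 2 for the latter. Loci whose groups overlap could not enter this list. Their log2 fold changes were -5.10 ± 0.81 (limma, adjusted p = 1.90e-04) and -5.09 ± 0.69 (adjusted p = 3.13e-05). XLOC_057810, with 461, 222, 147 and 194 against 10.6, 19.4, 10.6 and 12.8, fell by 4.07 ± 0.35 on the log2 scale (adjusted p = 7.48e-08). Of the 3, XLOC_040723 and XLOC_057810 had means above the non-injured mean at 14 dpci (1361 ± 703 and 460.4 ± 157), whereas XLOC_026648 was at 54.5 ± 25.1.

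In value units, the largest losses were those of loci with high values in the non-injured apex, which can lose the most units. The 3 loci with the highest non-injured means, XLOC_062480, XLOC_020821 and XLOC_001274, all fell, and XLOC_013344 completed the 4 largest losses. XLOC_062480 had 578869, 287582, 521823 and 536551 before injury and 125403, 172466, 199008 and 181695 at 3 dpci. Its mean was 2.84-fold lower and its log2 fold change -1.47 ± 0.19 (limma, adjusted p = 1.49e-05). XLOC_020821 had 505415, 294201, 439609 and 471479 against 127383, 164766, 150495 and 159520, and its log2 fold change was -1.48 ± 0.17 (adjusted p = 3.75e-06).

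XLOC_001274 had 468238, 228945, 438724 and 423889 in the non-injured libraries and 77829.5, 128597, 120307 and 92506 at 3 dpci, with a log2 fold change of -1.87 ± 0.28 (adjusted p = 8.15e-05). XLOC_013344 had 451014, 281953, 296658 and 275688 against 78219.5, 113606, 104927 and 103130, and fell by 1.69 ± 0.16 (adjusted p = 1.88e-07). After quantile normalization all 4 changes were smaller, at -0.80 for XLOC_062480, -0.69 for XLOC_020821, -0.73 for XLOC_001274 and -0.70 for XLOC_013344, and the call of XLOC_001274 was lost (limma, adjusted p = 0.0511). Non-injured replicate 2 was the lowest control in 3 of the 4 loci and replicate 4 in XLOC_013344. The 4 loci were chosen among those without overlap between the groups. At 1.5 dpci the mean of XLOC_062480 was lower than at 3 dpci, at 117690 ± 5577, and at 7 dpci it was 303666 ± 47847. The 4 loci together carried 14.0% of the loss of the held falls.

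Loci with reads on only one side of the comparison were mostly of low abundance. In all, 383 loci (0.612% of those tested) were at 0 in the 4 non-injured libraries and read in each of the 4 at 3 dpci. Of these, 231 were held rises, beside 6.12% of all loci tested. Choosing loci by a 0 in the same libraries as the test favours this. A mean of at least 10 was found at 37 and one of at least 100 only at XLOC_028312, and the median of the means was 3.95. The reverse pattern was found at 85 loci (0.136%). Among them 29 were held falls, beside 4.71% of all loci tested, and 16 had a non-injured mean of at least 10, the highest being 31.2. The limit that 3 reads per library set was 3.42 value units in the non-injured group and 2.65 at 3 dpci. Whether this lower limit adds to the difference in number was not tested. XLOC_012949, the second of the loci at 0 before injury by its mean at 3 dpci, had 132, 69.4, 69.8 and 77.9 at 3 dpci. Against the limit that 3 reads per library set, its level was at least 25.5-fold higher at 3 dpci (limma, adjusted p = 6.00e-08). It was also read in every library at the other time points, with means of 94.4 at 1.5 dpci, 17.2 at 7 dpci and 5.61 at 14 dpci.

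The next locus by this order, XLOC_013137, had a value of 202 in 3 dpci replicate 2 and 0 in the other 7 libraries, and did not pass the test (limma, adjusted p = 0.251). The loci at 0 in all 3 dpci libraries with the highest non-injured means were XLOC_027509, XLOC_027524 and XLOC_027516. They had 672, 607 and 385 in non-injured replicate 1 and 1087, 659 and 667 in replicate 2, but 0 in replicates 3 and 4. None of the 3 passed the test against all non-injured libraries (limma, adjusted p = 0.0532, 0.0581 and 0.0530). Each passed without non-injured replicate 3 (adjusted p = 0.00826, 0.01005 and 0.0082) or without replicate 4 (0.00819, 0.00982 and 0.00813). Those 2 controls are the ones at 0, so leaving out either enlarges the estimated fall. Without replicate 2 none passed (limma, adjusted p = 0.162, 0.178 and 0.162), and none passed without replicate 1. With all 4 controls kept but only loci of at least 10 in at least 4 libraries tested, all 3 passed (limma, adjusted p = 0.0245, 0.0271 and 0.0263). With edgeR on recovered reads none passed (adjusted p = 0.215, 0.214 and 0.216). The same was so with limma-voom and in a limma fit of the 8 libraries alone. Against replicates 1 and 2 alone the adjusted p was at most 4.69e-09, while replicates 3 and 4 were at 0 like the 3 dpci libraries.

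Some loci with large estimates passed against all controls but did not hold. Among loci with a mean of at least 100 that passed against all non-injured libraries, XLOC_035037 and XLOC_028761 had the largest estimates of those that did not hold against replicates 1 and 2. XLOC_035037 had 297, 602, 214 and 132 before injury and 0, 0, 176 and 104 at 3 dpci, with overlapping groups (log2 fold change -4.52 ± 1.40, limma, adjusted p = 0.0274). Its adjusted p was 0.0587 against replicates 1 and 2 and 0.164 against replicates 3 and 4, and the call was also lost without non-injured replicate 1 (0.0567) or 2 (0.0687) and without 3 dpci replicate 1 (0.0947) or 2 (0.0915). With the 8 libraries alone, limma-voom and edgeR the adjusted p of XLOC_035037 was 0.169, 0.089 and 0.366. XLOC_028761 had 10.1, 127, 4.43 and 4.79 against 252, 185, 285 and 199, groups that did not overlap (3.97 ± 0.86, adjusted p = 0.00258). Non-injured replicate 2 was high, and against replicates 1 and 2 the estimate was 2.59 (adjusted p = 0.0634). The call against all 4 was lost with edgeR on recovered reads (log2 fold change 2.63, adjusted p = 0.132).

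XLOC_006380 and XLOC_005703 had the largest estimates of those that did not hold against replicates 3 and 4. XLOC_006380 had 1.26, 0, 68.7 and 2.39 in the non-injured libraries and 569, 865, 61.9 and 32.1 at 3 dpci, so that non-injured replicate 3 was above 3 dpci replicates 3 and 4 (5.22 ± 1.23, limma, adjusted p = 0.00481 against all controls and 0.098 against replicates 3 and 4). The call against all controls was lost in a limma fit of the 8 libraries alone (adjusted p = 0.058), with limma-voom (0.184) and with edgeR (0.135). XLOC_005703 had 1.26, 4.94, 11.1 and 22.7 against 431, 315, 168 and 176, with no overlap (5.0 ± 1.49, adjusted p = 0.0218). Its adjusted p was 0.179 against replicates 3 and 4, 0.0683 without non-injured replicate 1, 0.054 without 3 dpci replicate 1 and 0.0884 with a pseudocount of 0.1.

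Some held changes varied widely among the 3 dpci libraries themselves. XLOC_005248 had the widest range at 3 dpci among loci that held with a mean of at least 100, with 288, 45.3, 828 and 351 against 39.2, 8.89, 23.3 and 14.4. Replicate 2 was low in both groups, and its 3 dpci value was just above the highest non-injured value. The log2 fold change was 3.67 ± 0.73 (limma, adjusted p = 0.00122), and the call was lost with limma-voom on the recovered reads (adjusted p = 0.0644). XLOC_034957 had 63.1, 257, 155 and 202 before injury and 4.06, 71.2, 24.7 and 37.6 at 3 dpci, where replicate 2 overlapped the lowest non-injured library (-2.62 ± 0.62, adjusted p = 0.00425). The edgeR quasi-likelihood test on recovered reads gave an adjusted p of 0.062 for it.

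Changed loci often stood beside each other in the numbering. Of the held rises, 1602 (41.8%) had a held rise at the next or the previous locus number, and of the held falls 894 (30.3%) had a held fall there. Over all loci tested, 6.12% were held rises and 4.71% held falls, which are rates of single loci. The shares with a neighbour count a held locus at either adjoining number, so in a random order they would also exceed these rates. The share of such neighbours and the number of runs in a random order were not computed. There were 203 runs of at least 3 consecutive rises and 100 of at least 3 falls, and 59 and 26 runs of at least 5. Locus numbers were assigned in the assembly of transcripts, and the positions listed in the table stand in another order than these numbers. Whether neighbours are parts of a single transcript or separate genes was not tested.

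The longest run of rises covers the 17 loci XLOC_038146 to XLOC_038162. Their summed value was 391.5, 818, 459 and 513 in the non-injured libraries and 2770.2, 2091, 2782 and 2892 at 3 dpci. By definition of the run all 17 loci rose. Their log2 fold changes lay between 1.89 and 2.96 (limma, adjusted p between 4.31e-06 and 0.00146). None of them had overlapping groups, which was also so for 3763 of all 3833 held rises. Over all loci tested the share without overlap in this direction was 12.9%. XLOC_038161, with the highest means of the 17, had 63.1, 121, 66.5 and 67.0 before injury and 388, 315, 389 and 415 at 3 dpci. Non-injured replicate 2 was the highest control and 3 dpci replicate 2 the lowest injured library in the sum of the run. The sum was 1803 ± 486 at 1.5 dpci, 1372 ± 257 at 7 dpci and 834 ± 351 at 14 dpci (SD, n = 4), so its mean was highest at 3 dpci.

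The longest run of falls covers the 12 loci XLOC_000706 to XLOC_000717, whose summed value was 2544, 3360, 1646 and 2077 in the non-injured libraries and 63.4, 59.2, 61.9 and 45.9 at 3 dpci. By definition of the run all 12 fell. No locus had overlapping groups, which was also so for 2898 of all 2950 held falls, beside 9.8% of all loci tested. The sum was nearly the same in the 4 libraries at 3 dpci and lower than in any other library of the series. At 1.5 dpci the sum was 895 ± 395, at 7 dpci 2108 ± 454 and at 14 dpci 3042 ± 1090 (SD, n = 4), the last 2 overlapping the non-injured range.

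Within this run, 6 loci had more than 3 reads at 3 dpci, and their log2 fold changes ran from -7.14 for XLOC_000717 to -3.81 for XLOC_000706. XLOC_000709, XLOC_000711, XLOC_000714 and XLOC_000716 had no read at 3 dpci, and against the limit of 3 reads per library they were at least 3.19-fold, 6.46-fold, 11.8-fold and 4.70-fold lower. XLOC_000712 had 3 reads at 3 dpci, which gives a ratio of the means of 44.5 with a 95% counting interval of 15.2 to 216. XLOC_000715 had a single read, for a ratio of 324 and an interval of 58.1 to 12786.5. These intervals and limits cover counting error only.

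**Figure D4:**
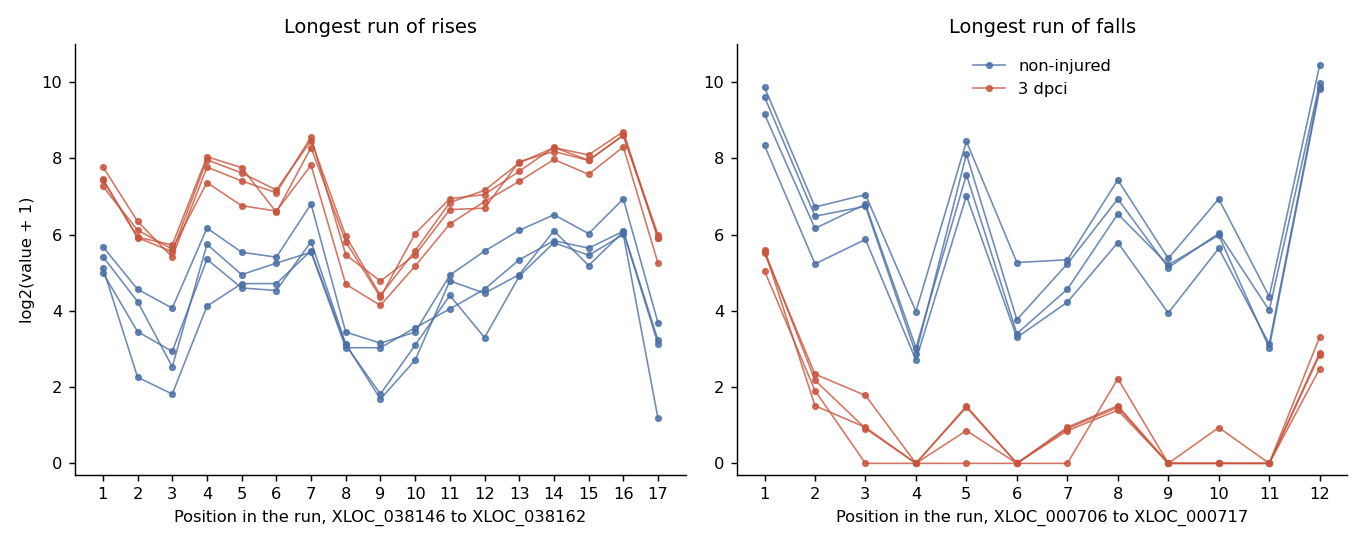
Values as log2(value + 1) along the longest run of held rises (left, 17 loci) and of held falls (right, 12 loci), with a line for each non-injured (blue) and 3 dpci (red) library and the position in the run on the horizontal axis. At every position the 4 libraries of a group lie on the same side of the other group, and in the run of falls several 3 dpci points are at 0.

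The held changes were also followed through the other libraries of the series, as a description, since the same non-injured libraries serve as reference. In 3 dpci replicates 1 to 4 the median difference of the held rises from the non-injured mean was 1.92, 1.92, 2.05 and 1.92 on the log2(value + 1) scale, and that of the held falls -1.31, -1.17, -1.31 and -1.19. The loci were chosen on these same libraries, which favours loci that are alike in all 4. At 1.5 dpci the medians were 1.19 to 1.42 for the held rises and -1.08 to -0.85 for the held falls. They were smaller at 7 dpci, with 0.78 to 1.07 and -0.71 to -0.38, and again at 14 dpci, with 0.41 to 0.67 and -0.50 to -0.10.

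Most held changes had their extreme mean at 3 dpci, which the choice of the loci favours. Of the held rises, 2765 (72.1%) had their highest group mean at 3 dpci and 839 (21.9%) at 1.5 dpci, while 177 were highest at 7 dpci and 52 at 14 dpci. Of the held falls, 1901 (64.4%) were lowest at 3 dpci and 915 (31.0%) at 1.5 dpci, with 50 at 7 dpci and 84 at 14 dpci. Over all loci tested, 20.5% were highest and 19.7% lowest at 3 dpci.

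**Figure D5:**
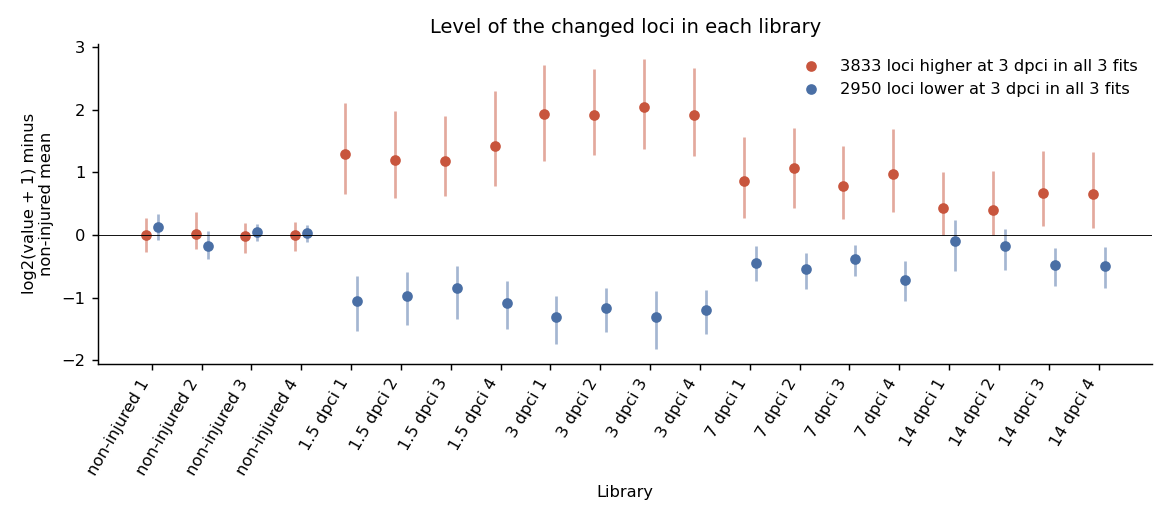
Median difference in log2(value + 1) from the non-injured mean, over the 3833 held rises (red) and the 2950 held falls (blue), in each of the 20 libraries, with lines from the lower to the upper quartile of loci. The medians are farthest from 0 at 3 dpci, by which the loci were chosen, and lie nearer to 0 at 1.5, 7 and 14 dpci.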

How the data were processed

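RNA of ventricular apexes was sequenced in 20 libraries, of which the 4 non-injured and 4 3 dpci libraries were compared. The authors had a service provider prepare stranded total RNA libraries, align the reads to GRCz10 with Ensembl annotation 90, and run Cufflinks, Cuffmerge and Cuffdiff, normalizing by the median of geometric means. The deposited values are a signal, namely reads per locus divided by a size factor of the library. In the 8 libraries, 99.96% to 99.99% of the values were whole multiples of the value of 1 read within 0.1 read (100% up to 20 reads), and reads were recovered from them. Of the 66128 rows, 42278 list a chromosome position in a column beside the gene names. The positions stand in text order (7853 changes of chromosome as deposited, 26 blocks when put back into numerical order). Neither they nor the gene names were used. Columns without a sample numbered 0.

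The 62594 loci above 0 in 1 or more libraries were tested with limma 3.58.1 (R 4.3.3, statmod 1.5.0; lmFit, eBayes, with both its trend and robust settings) on log2(value + 1), which understates changes of low loci, in a model of 20 libraries and 5 groups. The fits against a pair of controls held 18 libraries. Benjamini-Hochberg adjusted p-values below 0.05 were called. Library measures were compared by exact permutation (scipy 1.17.1). The scripts were tested on simulated data. Replicates differed by more than sampling noise (chi-square per degree of freedom 16.2 to 62.6), so none was counted as a duplicate. With edgeR 4.0.16 (quasi-likelihood) on the recovered reads of the 8 libraries, 6196 loci were higher and 5186 lower.

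Loci were named by a rule. It took the 6 largest held rises and falls with a mean of at least 100 and no overlap. It added the 4 largest gains and losses among held loci without overlap. The rule further took the 3 highest loci at 0 in either group, 2 loci lost against each control pair and the longest run each way. The last were the 2 widest ranges at 3 dpci and the 3 loci with the highest non-injured mean. XLOC_010196, XLOC_051655 and XLOC_052752 were named after their values were seen. The members, rules and lists were chosen with earlier results of these data known. Alternatives were TMM rescaling, quantile normalization, a value of at least 10 in at least 4 libraries, pseudocounts of 0.1 and 5, only the 8 libraries, the replicate number as a block, a log2 fold change of at least 1, limma-voom and edgeR on reads, and the omission of each library. The shares without XLOC_028312 were added after seeing the data.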

Additional observations from a re-analysis of the deposited data

Results flagged for a closer look

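In 11 of 122 groups of 4 values examined, all 11 at named loci, a value stood apart by Dixon's test. Its gap to the nearest of the others, divided by the range of the group, exceeded the 95% critical value. Chance alone gives about 1 in 20 such groups, or 6.1 here. This rate is not meant for groups of a few whole reads, as at some loci below. All values below are on the log2(value + 1) scale.

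In the run XLOC_000706 to XLOC_000717, 3 dpci replicate 4 stood apart at 4 loci. It was low at XLOC_000706 (5.05 against 5.51 to 5.59, gap 0.859 of the range) and at XLOC_000712 (0 against 0.86 to 0.94, gap 0.908). It was high at XLOC_000713 (2.22 against 1.39 to 1.51, gap 0.857) and at XLOC_000715 (0.94 against 0 in the others, gap 1). At XLOC_000712 this is 0 reads against 1, at XLOC_000715 1 read against 0 and at XLOC_000713 4 reads against 2. At XLOC_000714 non-injured replicate 3 was low (3.95 against 5.13 to 5.37, gap 0.831).

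Non-injured replicate 2 was low at the abundant loci XLOC_062480 (18.13 against 18.99 to 19.14, gap 0.852) and XLOC_001274 (17.80 against 18.69 to 18.84, gap 0.861), and it was high at XLOC_038161 (6.94 against 6.0 to 6.09, gap 0.909). Non-injured replicate 1 was high at XLOC_013344 (18.78 against 18.07 to 18.18, gap 0.851). At 3 dpci, replicate 2 was low at XLOC_038162 (5.25 against 5.90 to 5.99, gap 0.873) and was the only library with reads at XLOC_013137 (7.66 against 0, gap 1).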

How the results depend on the processing

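Under TMM rescaling, quantile normalization, a value filter, pseudocounts of 0.1 and 5, a fit of the 8 libraries alone, limma-voom and edgeR on recovered reads, the counts of called and held loci stayed within 1.5 times the values reported (edgeR held 3302 rises and 2661 falls, of which 2819 and 2344 were also held in the report). Asking for a log2 fold change of at least 1 left 4239 of the falls and 1833 of the held falls. Leaving out each library in turn gave 6738 to 7525 rises and 5174 to 6047 falls, with 2328 to 3450 rises and 1504 to 2723 falls held. The lowest held counts came without non-injured replicate 1, which leaves 1 library in its pair, and 2506 rises held without non-injured replicate 3. With the replicate number as a block, 5954 rises and 4622 falls were called, but 0 rises and 0 falls held. A fit against a pair of controls then has 1 residual degree of freedom, and whether this accounts for the loss was not tested. The unadjusted p (limma) was below 0.05 in all 3 fits for 3212 rises and 1927 falls, where 61441 loci were tested with all 8 libraries. The labels do not say whether replicates of the same number share more than the number. Their deviations correlated with r of -0.17, 0.07, -0.01 and 0.22, beside -0.18 to 0.22 between replicates of different number. A shared origin was not tested. The share of rises among all calls was 50.8% to 57.2%. No held locus was held in the opposite direction. Without a control library this outcome is fixed, as the fit against the other pair stays the same. The 56 named loci gave 1063 values under alternatives, of which 24 lost and 15 gained a call and 0 turned. The median over all loci moved by less than 0.1 on the log2 scale in each setting. Depth limits what can be seen in loci with a mean below 1.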

Other observations

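The division of the non-injured libraries was sharpest in loci that were read in one pair and not in the other. With a value of at least 10 in non-injured replicates 1 and 2 and 0 in replicates 3 and 4, 154 loci were found, beside 41 loci with the reverse pattern and 5 to 27 loci for each of the other 4 pairings of the controls. Of the 154, 57 were also at 0 in all 4 libraries at 3 dpci, and 2 were at 10 or more in all of them. Of the 41, 0 were at 0 in all libraries at 3 dpci, and 15 were at 10 or more in all of them.

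Of the 57 loci, 35 were at 0 in all libraries of 1.5 dpci too, and 23 of these were read in every library of 7 and 14 dpci. A group of 21 of the 57 lies between XLOC_027507 and XLOC_027531, a range with 25 tested loci. The summed value of these 21 loci was 4922 and 6703 in non-injured replicates 1 and 2 and 0 in replicates 3 and 4. It was 0 in all 4 libraries at 3 dpci, 0 to 4.57 at 1.5 dpci, 2931 to 15785 at 7 dpci and 2317 to 4526 at 14 dpci. These loci were chosen by their values, and no test was made on them. What the libraries at 0 have in common, other than their labels, was not tested.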
